A study of Homo sapiens with 2 samples.

Results

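The genes examined here encode the constitutive proteasome: the subunits of its 20S core and 19S cap, its activators and the factors that assemble it. They were read on 2 microarrays of PC3 cells, an epithelial cell line grown from a bone metastasis of a human prostate cancer and kept as a model of castration-resistant disease. One array held RNA of PC3 cells given 10 µM fluphenazine, a phenothiazine antipsychotic, and the other RNA of PC3 cells given the solvent DMSO. Both groups are the same cell line in the same serum-containing medium, and the sources used here do not say how long treatment lasted. The members were chosen by name, with earlier results of these data known. Of 41 listed genes, 37 had at least 1 probe set annotated with that gene alone, 72 probe sets in all, out of 18392 genes and 47693 probe sets on the table. PSMA6 was read only by probe sets that also name a second gene. PSMC5, PSMD7 and PSMD13 were not analysed here.

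The proteasome degrades proteins that carry ubiquitin chains. In its barrel-shaped 20S core, rings of alpha subunits gate the entrance and rings of beta subunits hold the proteolytic sites. The 19S cap has a base, whose ATPases unfold substrates and thread them into the core, and a lid, which removes ubiquitin. Dedicated chaperones build both parts, and the transcription factor NFE2L1 raises transcription of the subunit genes together when proteasome activity falls short.

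Each array stands for 1 culture as far as the labels say, so no value has an error between replicates and no test between treatments could be made. Every difference below is fluphenazine minus DMSO in log2 signal, read from the probe set of a gene with the highest mean signal. The comparison used a floor of 6.19, the median over genes of their higher value, which 9196 genes and all 37 measured members reached. As a gauge of noise inside the arrays, the differences of probe sets of the same gene had a pooled SD of 0.13 over 3668 genes with several probe sets above that floor, and of 0.07 over the 16 members among them. Neither includes the variation between cultures. The number of arrays limits the precision. The arrays share nearly one distribution of values, so a difference is relative to the other genes, and in bulk RNA fewer cells of a kind and less RNA per cell cannot be told apart.

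All 5 epithelial markers (KRT8, KRT18, KRT19, EPCAM and CDH1) were above the floor, at log2 signals of 9.28 to 12.72 with fluphenazine and 9.70 to 12.69 with DMSO. Neither of the 2 measured leukocyte markers was above it, and 1 of 3 endothelial markers (PECAM1) and 1 of 4 fibroblast markers (COL1A1) were. Of 3 listed markers of prostate luminal cells and androgen signalling, a set listed as low in PC3, KLK3 alone was measured. It was above the floor, at 6.90 with fluphenazine and 6.93 with DMSO, by 1 of its 3 probe sets. The part of these marker genes in the results was not tested. The 24 probe sets for poly-A spike-ins, bacterial transcripts added before labelling, were all lower with fluphenazine, with a median difference of -0.22 and a range of -0.37 to -0.06. Their median was -0.34 for probe sets at the 5′ ends, -0.16 in the middle and -0.12 at the 3′ ends. The control probe sets of the human gene ACTB gave -0.13, -0.17 and 0.00 in that order, and those of GAPDH 0.06, -0.02 and 0.03. Hybridization controls were lower at 14 of 18 probe sets, with a median difference of -0.07, which is as large as the proteasome differences described next. The part of these controls in the results was not tested.

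The proteasome genes were slightly lower on the fluphenazine array, by small and similar amounts. Of 37 members, 30 were lower and 7 higher, where 51.8% of all 9196 genes were lower by any amount and 48.2% higher. The members' median difference was -0.06, a signal 4.27% lower with fluphenazine, and the median over all genes was -0.01. Their differences ran from -0.20 to 0.07, with an interquartile range of -0.10 to -0.02, while all genes had an interquartile range of -0.10 to 0.09. The SD of the differences over genes was 0.06 for the members and 0.17 for all genes. The members' values were therefore packed more closely than those of the array as a whole, and their centre lay below its centre.

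Large differences were absent at the thresholds used. No member differed by 1.5-fold, which 0.576% of all genes did in either direction. At least 1.1-fold lower were 4 members, namely PSMB3, PSMC4, PSMD11 and PSMB6, or 10.8% of the members, where 18.2% of all genes met that rule. No member was at least 1.1-fold higher, where 16.6% of all genes were. A share of 10.8% is below the background, so the count past 1.1-fold is not a result about these genes. The pattern lies in the direction of many small differences, and for that the arrays hold no replicate.

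**Figure D1:**
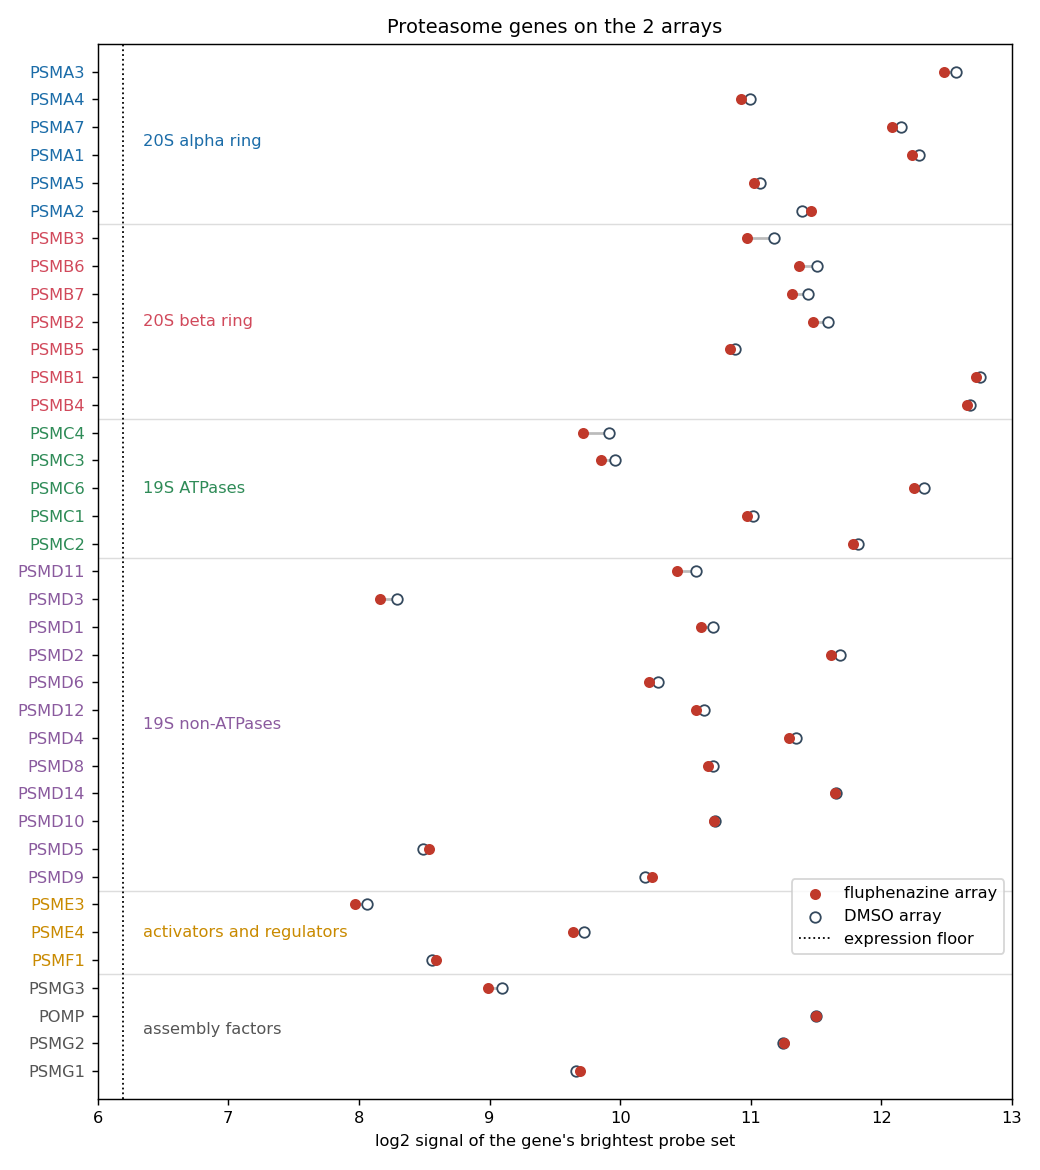
Log2 signal (horizontal axis) of 37 proteasome genes on the fluphenazine array (filled red points) and the DMSO array (open points), grouped by role and, within a role, ordered by difference; the dotted line is the expression floor of 6.19. Distances between genes reflect their probe sets and are not compared. Red points lie left of the open points in 30 genes, and the widest gap is that of PSMB3, at 10.97 with fluphenazine and 11.18 with DMSO.

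Most members are bright on this array, and the comparison was therefore also set against genes of like signal. Genes above the floor were divided by mean signal into 4 bins of 2299 genes. The brightest bin, with mean log2 signals of 9.60 to 14.27, held 32 of the members, and 27 of these were lower, with a median of -0.06. Over all genes of that bin, 47.8% were lower and the median was 0.01. The SD of the differences there was 0.06 for the members and 0.14 for all genes of the bin. At least 1.1-fold lower were 4 of the 32 members and 11.7% of the bin's genes. The dimmer bins held PSMD3 and PSME3, both lower, and PSMD5, PSMF1 and PSMG3, of which PSMG3 alone was lower. With the floor raised to 8.43, the upper quartile over genes, 28 of 35 members were lower, where 48.6% of 4598 genes were. In the brightest bin and with the raised floor, the members' median lay below that of the genes beside them. In the third bin, with 3 members, it was 0.02 against 0.00.

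**Figure D2:**
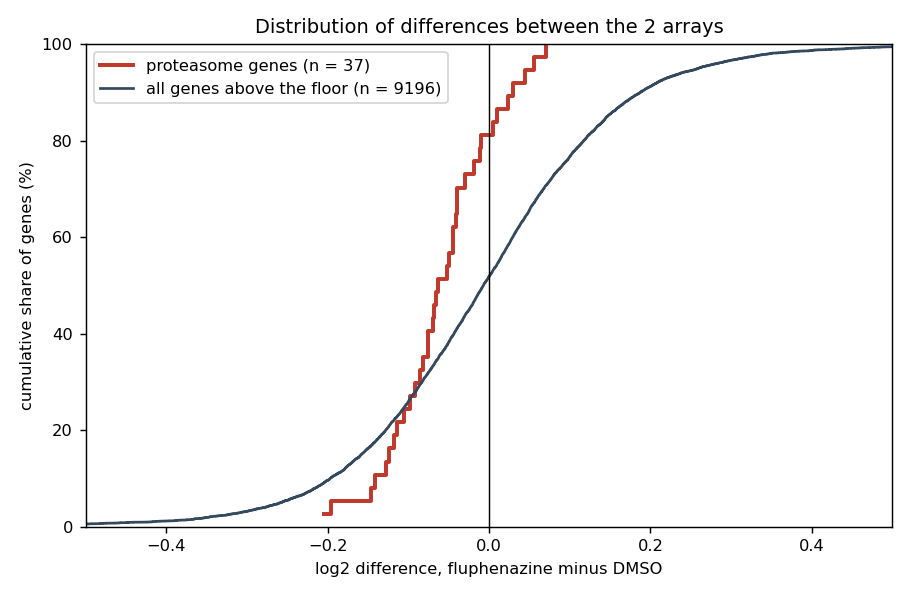
Cumulative share of genes (vertical axis, percent) at or below each log2 difference, fluphenazine minus DMSO (horizontal axis), for 37 proteasome genes (red) and 9196 genes above the floor (dark line); genes beyond the ends of the axis are not drawn. The red line is steeper, reaches 81.1% at a difference of 0 and ends at 0.07, while the dark line stands at 51.8% at 0 and extends further to both sides.

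The promoters of 4 members are shown first, because proteasome genes are known to share regulatory elements there. The sequences are the 250 bases before the start of the gene, 5′ to 3′ on the gene's strand, from RefSeq on GRCh38.p14, and they are the plus strand in these 4 genes. PSMB3 (chr17:38752491-38752740), PSMC4 (chr19:39970915-39971164) and PSMD11 (chr17:32444260-32444509) had the lowest differences of the members with a promoter in the table, while PSMD9 (chr12:121888540-121888789) is a base assembly chaperone with a difference of 0.06, shown because it holds a motif on both strands. Capitals mark matches on either strand to TGACNNNGC, the core of the element read by NFE2L1 and its relative NFE2L2, and to CCAAT, the box bound by NF-Y.
PSMB3: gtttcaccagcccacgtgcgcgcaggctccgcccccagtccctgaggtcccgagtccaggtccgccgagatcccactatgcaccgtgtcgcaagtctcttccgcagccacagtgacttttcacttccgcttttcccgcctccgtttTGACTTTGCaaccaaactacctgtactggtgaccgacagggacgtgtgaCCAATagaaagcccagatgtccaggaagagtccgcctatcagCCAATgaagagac
PSMC4: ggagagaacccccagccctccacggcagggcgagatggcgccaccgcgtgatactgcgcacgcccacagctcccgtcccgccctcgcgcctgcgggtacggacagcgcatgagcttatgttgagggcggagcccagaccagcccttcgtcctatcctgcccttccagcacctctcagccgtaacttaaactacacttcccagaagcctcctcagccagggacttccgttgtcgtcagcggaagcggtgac
PSMD11: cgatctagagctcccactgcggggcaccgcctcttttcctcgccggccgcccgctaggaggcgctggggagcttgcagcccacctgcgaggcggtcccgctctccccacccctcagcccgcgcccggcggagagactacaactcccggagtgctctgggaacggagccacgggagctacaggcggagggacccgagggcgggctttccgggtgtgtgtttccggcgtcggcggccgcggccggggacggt
PSMD9: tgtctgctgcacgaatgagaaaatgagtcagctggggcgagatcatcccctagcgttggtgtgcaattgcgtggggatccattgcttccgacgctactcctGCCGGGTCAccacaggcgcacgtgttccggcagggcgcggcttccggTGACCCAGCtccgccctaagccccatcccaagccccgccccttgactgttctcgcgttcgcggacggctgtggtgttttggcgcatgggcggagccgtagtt

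PSMB3 holds TGACNNNGC on its own strand, starting 104 bases before the gene's start, and 2 CCAAT boxes nearer to it. PSMD9 holds TGACNNNGC on both strands, starting 102 and 149 bases before its start. The stretches of PSMC4 and PSMD11 hold neither motif, and PSMC4 has a TGACNNNGC match on the opposite strand 28 bases after its start, outside the stretch shown. The promoter table held 31 of the 37 measured members, and the motifs were searched in its windows of 300 bases, from 250 before to 50 after a start, counting a gene when any of its windows matched. TGACNNNGC was found in 11 of 31 members (35.5%), against 16.1% of 27305 genes in the table and 19.9% of 7700 genes above the floor. CCAAT was found in 16 of 31 members (51.6%), against 39.7% of the table's genes and 44.3% of those above the floor. GAANNTTC, a unit of the heat shock element, was found in 0 of 31 members, 8.21% of the table's genes and 6.32% of those above the floor. None of the 3 motifs contains another. Members with TGACNNNGC had a median difference of -0.07 and a range of -0.20 to 0.06, and the 20 without it a median of -0.04 and a range of -0.15 to 0.07. These ranges overlap almost completely, and no test was made.

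The alpha ring, whose subunits form the outer rings and the gate of the core, was lower in 5 of 6 measured members, with a median of -0.06. Among all genes above the floor, 51.8% were lower. PSMA3 had a log2 signal of 12.48 with fluphenazine and 12.57 with DMSO, a difference of -0.10. PSMA4 had 10.92 with fluphenazine and 10.99 with DMSO, a difference of -0.07. PSMA7 had 12.08 with fluphenazine and 12.15 with DMSO, also a difference of -0.07. PSMA3 and PSMA4 each had 1 probe set above the floor, and a second probe set of PSMA7 gave -0.10. PSMA5 had 11.02 with fluphenazine and 11.07 with DMSO, a difference of -0.05. PSMA1 was at -0.05, and its 3 probe sets spanned -0.09 to -0.04.

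PSMA2, another ring subunit, was the exception and its probe sets disagreed. The brightest one had 11.46 with fluphenazine and 11.39 with DMSO, a difference of 0.07, the highest of any member. A dimmer one had 7.63 with fluphenazine and 7.82 with DMSO, a difference of -0.18. This was the widest span among members with several probe sets above the floor. The 2 probe sets that name PSMA2 together with C7orf25, and which did not count for it, gave -0.09 and -0.15. The direction of PSMA2 therefore depends on the probe set read. PSMA6 is named only together with PRORP, by a probe set at 12.62 with fluphenazine and 12.70 with DMSO and a second at 8.18 with fluphenazine and 8.33 with DMSO, differences of -0.08 and -0.15 that cannot be assigned to either gene.

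The beta ring had the lowest median of the 6 roles, at -0.12, with 7 of 7 members lower, or 6 of 7 when the probe sets of a gene were averaged. The shares of all genes lower were 51.8% by the brightest probe set and 55.3% with averaged probe sets. PSMB3, a structural subunit without a proteolytic site, had 10.97 with fluphenazine and 11.18 with DMSO. Its difference of -0.20, a signal 13.2% lower, was the lowest of any member, and 9.1% of all genes above the floor had a lower one. It was read by 1 probe set. PSMB4, which closes the ring during assembly, had 12.66 with fluphenazine and 12.68 with DMSO, a difference of -0.02, with -0.13 and -0.04 from its other probe sets. PSMB1 had 12.72 with fluphenazine and 12.75 with DMSO, a difference of -0.03. PSMB2 was at -0.12 by its bright probe set and at 0.03 by one close to the floor, the third widest span among the members.

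The catalytic subunits were all lower, with differences of -0.14 to -0.04, where 51.8% of all genes were lower. PSMB6, which carries the caspase-like site, had 11.37 with fluphenazine and 11.51 with DMSO, a difference of -0.14. PSMB7, which carries the trypsin-like site, had 11.31 with fluphenazine and 11.44 with DMSO, a difference of -0.13. PSMB5 carries the chymotrypsin-like site, the main target of the proteasome inhibitors used against myeloma. It had 10.84 with fluphenazine and 10.88 with DMSO, a difference of -0.04, so its signals were closer to each other than those of PSMB6 or PSMB7. Each of the 3 was read by 1 probe set above the floor. The pooled SD of probe sets of the same gene was 0.13 over genes and 0.07 over members. Whether the 3 subunits differ from each other was not tested.

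**Figure D3:**
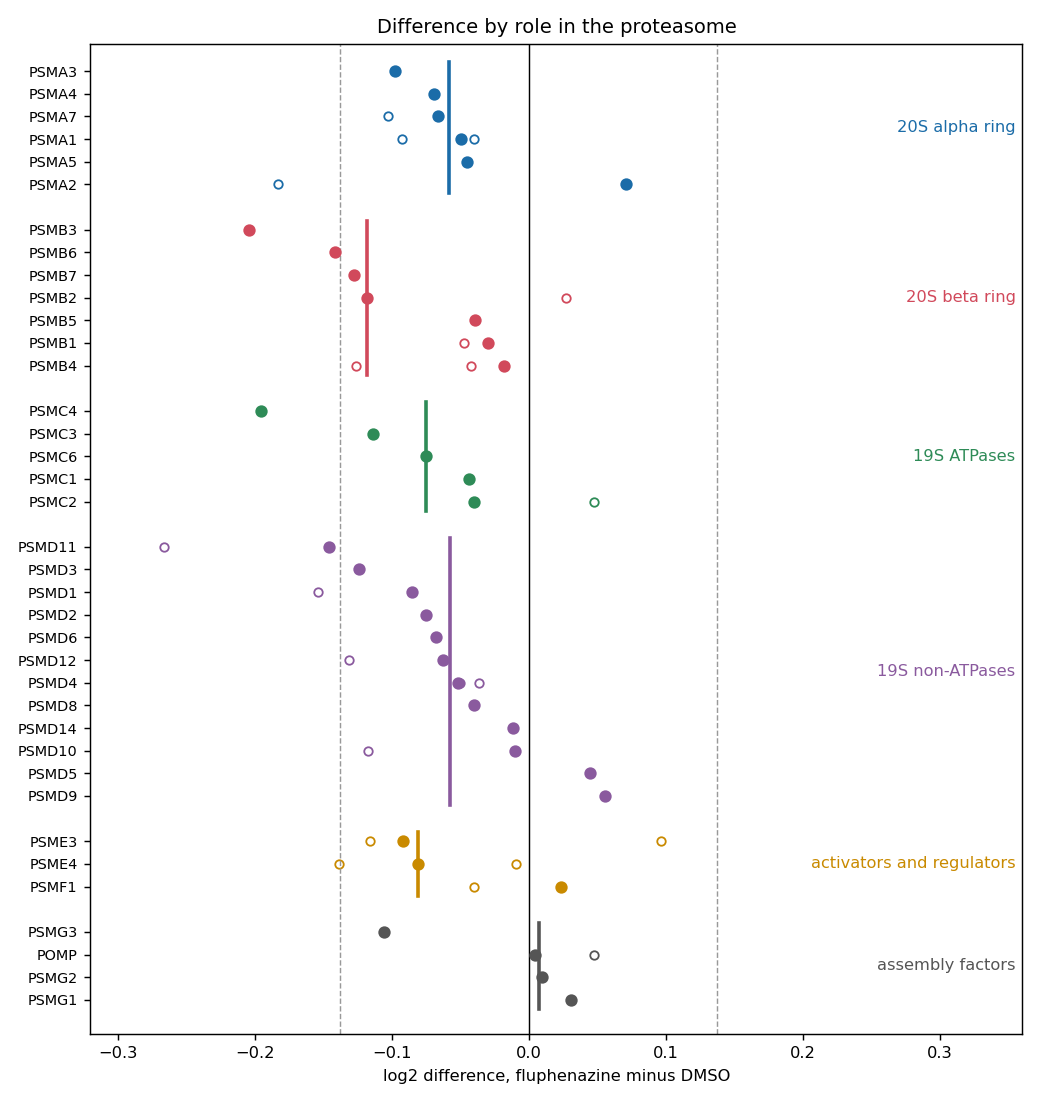
Log2 difference, fluphenazine minus DMSO (horizontal axis), of each measured member by role; filled points are the brightest probe set, open points the gene's other probe sets above the floor, vertical bars the median of a role, and dashed lines a 1.1-fold difference. The filled points of the 7 beta ring genes and the 5 ATPases all lie left of 0. Those of PSMA2, PSMD5, PSMD9, PSMF1 and 3 assembly factors lie right of it. Some open points lie on the other side, those of PSMB2 and PSMC2 to the right and those of PSMA2 and PSMF1 to the left.

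The ATPases of the 19S base, which form a ring on the core and pull substrates in, were lower in all 5 measured members, with a median of -0.08. When probe sets were averaged, 4 of 5 were lower. Over all genes, 51.8% were lower by the brightest probe set and 55.3% with averaged probe sets. PSMC4 had 9.72 with fluphenazine and 9.91 with DMSO, a difference of -0.20, the second lowest of the members. PSMC3 had 9.85 with fluphenazine and 9.96 with DMSO, a difference of -0.11. PSMC6 had 12.25 with fluphenazine and 12.33 with DMSO, a difference of -0.08. These 3 were each read by 1 probe set. PSMC1 had 10.97 with fluphenazine and 11.02 with DMSO, a difference of -0.04. PSMC2 had 11.78 with fluphenazine and 11.82 with DMSO, also a difference of -0.04, while its second probe set above the floor gave 0.05.

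The non-ATPases were lower in 10 of 12 measured members, with a median of -0.06, where 51.8% of all genes were lower. This role holds both cap subunits and chaperones. PSMD11, a lid subunit that clamps lid to core, had 10.43 with fluphenazine and 10.58 with DMSO. Its difference was -0.15, and its second probe set, close to the floor, gave -0.27. PSMD3, another lid subunit, had 8.16 with fluphenazine and 8.29 with DMSO, a difference of -0.12. PSMD1, the large scaffold of the base, had 10.62 with fluphenazine and 10.71 with DMSO, a difference of -0.09, and -0.15 by its second probe set. PSMD2, the other base scaffold and a docking site for shuttle factors, was at -0.08. The ubiquitin receptor PSMD4 was at -0.05, with its 3 probe sets between -0.05 and -0.04. The lid deubiquitinase PSMD14 was at -0.01, and the lid subunits PSMD6, PSMD12 and PSMD8 were at -0.07, -0.06 and -0.04. Without the chaperones, 9 of 9 cap subunits of this role were lower, with a median of -0.07, although PSMD4 was at 0.04 with averaged probe sets.

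The 3 chaperones numbered among the non-ATPases bind the ATPases while the base is built and leave the finished cap. PSMD9 had 10.25 with fluphenazine and 10.19 with DMSO, a difference of 0.06. PSMD5 had 8.53 with fluphenazine and 8.49 with DMSO, a difference of 0.04. PSMD10, also known as gankyrin, was at -0.01 by its brightest probe set and at -0.12 by its second. Their median was 0.04, and each brightest probe set differed by less than the members' pooled probe set SD of 0.07. The median of -0.06 over all members also lies within that SD, as do many lower subunits, among them PSMA1, PSMB5 and PSMD14. With averaged probe sets PSMD9 was at 0.12, PSMD5 at -0.12 and PSMD10 at -0.06.

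Factors that assemble the core were close to level. PSMG1, which pairs with PSMG2 to order the alpha ring, had 9.69 with fluphenazine and 9.66 with DMSO, a difference of 0.03. PSMG2 had 11.26 with fluphenazine and 11.25 with DMSO, a difference of 0.01. POMP, which brings beta subunits onto the alpha ring, had 11.50 on either array, a difference of 0.00, and 0.05 by a second probe set. PSMG3, a further alpha ring chaperone, had 8.99 with fluphenazine and 9.10 with DMSO, a difference of -0.11. The median of these 4 was 0.01, and 3 of them were higher, where 48.2% of all genes were. Under quantile normalization their median was -0.01, so the direction of this group is not settled.

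The subunits that stay in the finished particle can be set beside the factors that build it, a grouping made after the values were seen. Of 27 measured 20S and 19S subunits, 26 were lower, all but PSMA2, with a median of -0.07, where 51.8% of all genes were lower. With averaged probe sets, 23 of 27 were lower, where 55.3% of all genes were. Of the 7 chaperones and assembly factors, 2 were lower (PSMD10 and PSMG3), with a median of 0.01 and a range of -0.11 to 0.06. With averaged probe sets PSMD5 was lower too, at -0.12, so the contrast was weaker. The ranges overlap, and PSMG3 lay lower than most subunits.

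Among activators and regulators, which bind the ends of the core in place of the 19S cap or modulate its assembly, 2 of 3 were lower, with a median of -0.08. The share of all genes lower was 51.8%, and a count over 3 genes cannot be told from it. The median was -0.03 when the probe sets of a gene were averaged, and also over the 2 genes left by the floor at the upper quartile. PSME3, the nuclear activator also called REG gamma, had 7.97 with fluphenazine and 8.06 with DMSO, a difference of -0.09. Its probe sets above the floor spanned -0.12 to 0.10, the second widest span among the members. PSME4, a nuclear activator linked to chromatin, had 9.64 with fluphenazine and 9.72 with DMSO, a difference of -0.08, and its 3 probe sets spanned -0.14 to -0.01. The lowest of them, at 6.06 with fluphenazine and 6.20 with DMSO, reached the floor on the DMSO array alone. PSMF1, a core-binding protein first described as an inhibitor, had 8.59 with fluphenazine and 8.56 with DMSO, a difference of 0.02, and -0.04 by its second probe set.

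Of the 16 members with several probe sets above the floor, 10 were lower in all of them, 1 (POMP) was higher in all, and 5 were split between directions. This count was not made over all 3668 genes with several such probe sets. It therefore has no background share and is not read as a result about the members. These 5 were PSMA2, PSMB2, PSMC2, PSME3 and PSMF1. Over all 58 member probe sets above the floor, 47 were lower (81%), with a median of -0.06. These 47 include the PSME4 probe set that reached the floor on the DMSO array alone, which favours a lower difference. Of all 14662 single-gene probe sets above the floor, 52.7% were lower, and their median was -0.01. Probe sets of one gene share their RNA and are not independent.

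Partners of the proteasome that are not members went both ways. Of 28 listed partners, 25 were measured and all lay above the floor, 12 of them lower and 13 higher, with a median of 0.00. Over all genes, 51.8% were lower and 48.2% higher. At least 1.1-fold lower were 4 of the 25 and at least 1.1-fold higher were 2, where 18.2% and 16.6% of all genes were. UFD1, an adaptor of the segregase VCP, had 10.05 with fluphenazine and 10.26 with DMSO, a difference of -0.21. VCP, which extracts ubiquitylated proteins for the proteasome, had 10.21 with fluphenazine and 10.39 with DMSO, a difference of -0.18, but 0.03 by a second probe set. PAAF1, a further chaperone of the 19S base, had 8.23 with fluphenazine and 8.39 with DMSO, a difference of -0.15. By their brightest probe sets PSMD5 and PSMD9 had the opposite direction. With averaged probe sets PAAF1 was at -0.13 and PSMD5 at -0.12, the same direction, and PSMD9 was at 0.12. The 2 stoichiometric cap subunits on this list were lower too, with the ubiquitin receptor ADRM1 at -0.14 and SEM1 at -0.05. PSMG4, the partner of PSMG3, was at 0.01.

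NFE2L2, a transcription factor of the antioxidant response, had 10.42 with fluphenazine and 10.13 with DMSO, a difference of 0.29, the highest of the partners. It was read by 1 probe set above the floor, and the mean over its 3 probe sets was 0.20. NFE2L1, the transcription factor that drives subunit genes when the proteasome is inhibited, had 10.32 with fluphenazine and 10.29 with DMSO, a difference of 0.03, and its 3 probe sets spanned 0.03 to 0.07. NGLY1, the glycanase that NFE2L1 needs to become active, had 9.79 with fluphenazine and 9.65 with DMSO, a difference of 0.14. AKIRIN2, which carries proteasomes into the nucleus, had 9.08 with fluphenazine and 8.95 with DMSO, a difference of 0.13, against -0.02 by its second probe set.

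**Figure D4:**
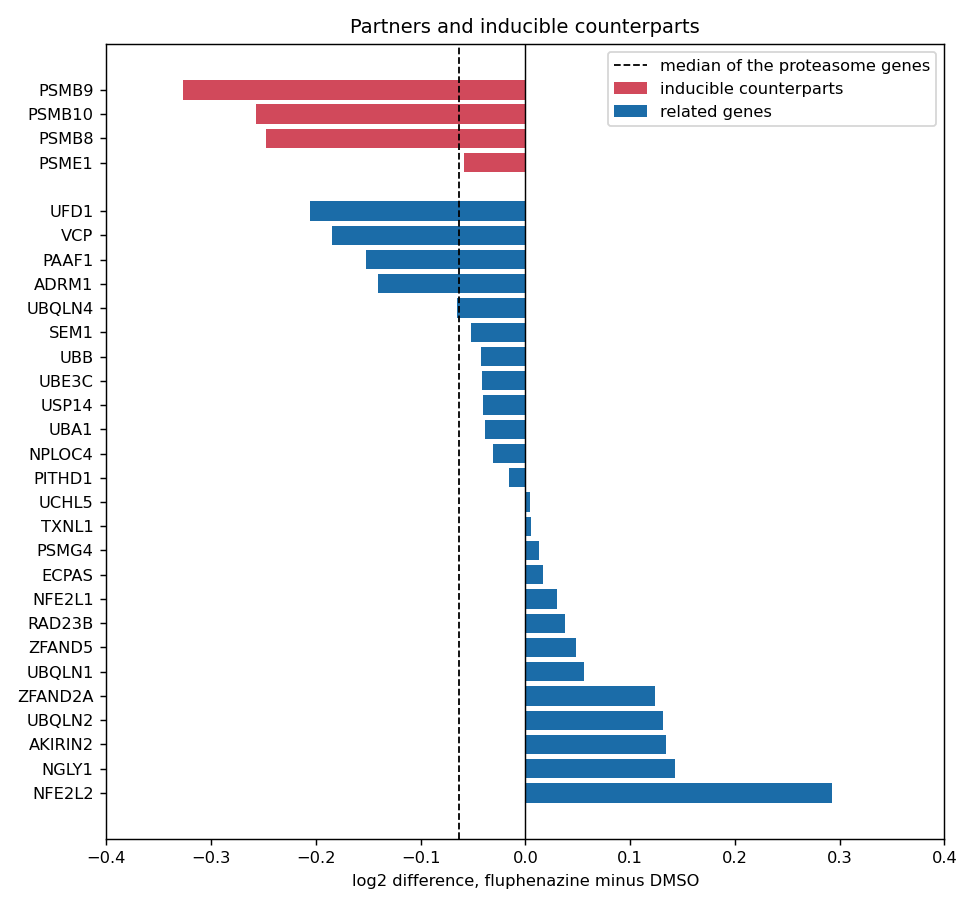
Log2 difference, fluphenazine minus DMSO (horizontal axis), of 4 inducible counterparts (red bars) and 25 partners (blue bars), each from the gene's brightest probe set; the dashed line is the proteasome genes' median of -0.06. PSMB8, PSMB9 and PSMB10 lie beyond all partners on the lower side, and NFE2L2 is the longest bar on the higher side.

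After interferon, 3 catalytic subunits of the core are exchanged for inducible ones, and the inducible ones were lower with fluphenazine. PSMB9, which replaces PSMB6, had 9.06 with fluphenazine and 9.39 with DMSO, a difference of -0.33, beside -0.14 for PSMB6. PSMB10, which replaces PSMB7, had 8.59 with fluphenazine and 8.85 with DMSO, a difference of -0.26, beside -0.13 for PSMB7. PSMB8, which replaces PSMB5, had 9.33 with fluphenazine and 9.57 with DMSO, a difference of -0.25, beside -0.04 for PSMB5. In each pair the inducible subunit had the lower difference, from 1 probe set above the floor each and with no test. PSME1, part of the interferon-induced activator, was at -0.06, and PSME2 had no probe set of its own.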

How the data were processed

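Expression was measured in PC3 cells given 10 µM fluphenazine and in PC3 cells given DMSO, with 1 array each. The deposited table holds 1 log2 value per probe set and array, the log2 scale being judged from a range of 1.60 to 14.28. The submitters' processing notes list RMA, the Transcriptome Analysis Console (version 3.1) and Affymetrix Expression Console (version 1.4) without saying what each did. When both columns were sorted, paired values lay a median of 0.0067 and no more than 0.13 apart. The sources used here name no genome build for the probes.

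The platform annotation of 2016 named 1 gene for 37151 probe sets and several for 1668, which were left out. Gene identifiers gave current symbols for 18354 genes. Each gene was read by the probe set with the highest mean of both arrays, and genes whose higher value reached 6.19 were kept. The fluphenazine value minus the DMSO value was described by counts, medians and thresholds of 1.1-fold and 1.5-fold. With 1 array per group no p-value was computed. The procedure was tested on simulated data with known shifts. Python 3.11.15 with numpy 2.4.6 and pandas 2.3.3 was used.

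Both values are printed for the catalytic subunits and, in each role, for the 3 members with the lowest and the 2 with the highest difference. Of the partners they are printed for the 3 lowest, the 3 highest, NFE2L1 and NFE2L2. The members, roles, lists and rules were chosen with earlier results of these data known, among them a lower median of a shorter proteasome list, and they are no independent support for it. Alternatives were quantile normalization, median centring, averaging the probe sets of each gene, no floor, a floor at the upper quartile, leaving out probe sets whose identifiers end in _s_at or _x_at, and counting every probe set.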

Additional observations from a re-analysis of the deposited data

How the results depend on the processing

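The median over the members was negative under all 6 alternatives that give one, from -0.08 without _s_at and _x_at probe sets to -0.05 with median centring and with the floor at the upper quartile. It lay below the median of all genes by 0.05 to 0.08 in each. With averaged probe sets 28 of 37 members were lower, where 55.3% of all genes were. The medians of the core, both rings, the ATPases, the non-ATPases and the activators kept their sign, but that of the activators was -0.03 both with averaged probe sets and with the floor at the upper quartile. The median of the assembly factors was -0.0150 under quantile normalization, against 0.0072 as reported, and that of the partners was -0.0021, against 0.0045. Members at least 1.1-fold lower numbered 2 with median centring, against 4 as reported, since PSMD11 and PSMB6 lie close to the threshold. Counting every probe set above the floor gave 47 lower and 8 at least 1.1-fold lower (13.8%) of 58, where 52.7% and 19.4% of all such probe sets were. Both counts include the PSME4 probe set that reached the floor on the DMSO array alone. Averaging all probe sets of a gene, dim ones included, moved PSMA3 to 0.08, PSMD4 to 0.04, PSMB1 to 0.03, PSMC2 to 0.02, PSMA2 to -0.06 and PSMD5 to -0.12, and without _s_at and _x_at probe sets PSMA2 was at -0.18. No paired analysis was possible because each group has 1 array, and leaving out a replicate was not possible for the same reason. Genes under the floor and differences of single genes near the probe set SD are beyond what 2 arrays can resolve.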

Other observations

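Outside the comparison, 14 dim probe sets of the members lay under the floor, 8 of them lower and 6 higher on the fluphenazine array. The lower share was 57.1%, near the 50.2% over all 22483 single-gene probe sets under the floor, so it is not a result about these genes. Differences of the 14 ran from -0.29 to 0.43, with a median of -0.05 and an SD of 0.23, against an SD of 0.07 for the 58 member probe sets above the floor. For PSMA3 a dim probe set, at 3.58 with fluphenazine and 3.14 with DMSO, gave 0.43 where the bright one gave -0.10. For PSMD9 a probe set just under the floor, at 5.98 with fluphenazine and 5.80 with DMSO, gave 0.18, the same direction as its bright one. Dim probe sets of PSMA5 and PSMB7, at -0.29 and -0.22, also went with the bright ones. Those of PSMD5, PSMB1 and PSMD4, at -0.29, 0.15 and 0.30, went against them.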
